A study of Rattus norvegicus with 48 samples.

Results

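The cluster of miR-132 and miR-212 of the rat was described here in liver after repeated dosing with thioacetamide (TAA), a hepatotoxicant that is bioactivated in the liver. Its members were taken by name from the deposited count table, as every mature miRNA whose name starts with rno-miR-132 or rno-miR-212, which gave 4 of the 664 mature miRNAs with at least 1 read. These are both strands of the miR-132 hairpin, rno-miR-132-5p and rno-miR-132-3p, and both strands of the miR-212 hairpin, rno-miR-212-5p and rno-miR-212-3p, written without the species prefix from here on. The cluster was selected on the measured log2 fold changes of its strands between treated and control livers of these same rats, so its differences between groups are given as a description, with standard errors and without p-values. Small RNA libraries were made from the livers of 48 male Sprague-Dawley rats, 3 in each of 16 groups. The low dose of TAA was 4.5 mg/kg, the middle dose 15 mg/kg and the high dose 45 mg/kg, each for 3, 7, 14 or 28 days, and time-matched controls at 0 mg/kg received the vehicle. Each library came from a piece of whole liver of 1 rat, so that fewer cells of a type and less RNA per cell cannot be told apart. The age of the rats was not given in the sources used here.

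In mammals both hairpins lie close together and are processed from 1 shared primary transcript, whose transcription is known to be driven by CREB, a factor activated by cAMP, calcium and growth factor signals. The cluster is best known from neurons, where it takes part in dendrite growth and plasticity, and it is also induced in stimulated monocytes, macrophages and endothelial cells. A hairpin is cut into a 5p and a 3p strand, and usually 1 of them, the guide, is kept in an Argonaute protein while the other is lost. The guide finds its target mRNAs mainly through the seed, bases 2 to 8 from its 5′ end. In RefSeq (GRCr8) the miR-212 hairpin spans chr10:60521740-60521850 and the miR-132 hairpin chr10:60522033-60522133, both on the plus strand. They are 182 bases apart, between Hic1, a gene of a transcriptional repressor (chr10:60512855-60517812), and the noncoding RNA gene LOC120095261 (chr10:60522142-60523741).

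The mature sequences of the 4 strands, from RefSeq, are shown because the 3p strands of both hairpins have the same seed and the 5p strands do not. Seeds are in capitals and all sequences run 5′ to 3′.
miR-132-3p: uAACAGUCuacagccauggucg
miR-212-3p: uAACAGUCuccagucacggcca
miR-132-5p: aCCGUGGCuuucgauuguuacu
miR-212-5p: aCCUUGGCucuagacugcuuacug
The 3p strands are identical at 17 of 22 positions, among them the first 9, and differ by A10C, C14U, U17C, U20C and G22A, with positions counted from the 5′ end and the base of miR-132-3p first. Their seed is held by no other of the 693 mature rat miRNAs in the table. The 5p strands are identical at 14 of 22 positions, counted from the 5′ end, and differ inside the seed by G4U (miR-132-5p first), and neither of their seeds is shared with another mature miRNA of the table. Reads of miR-132-3p and miR-212-3p can therefore be told apart at 5 positions.

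All 4 strands were scarce in liver. The deposited counts were scaled to a common library total (RPM) and by the upper quartile of each library over all 48 libraries, and these normalized RPM are the levels given below. miR-132-3p had the most reads, between 0 and 294 per library with a median of 6.31 RPM before scaling, and ranked 251 of 664. miR-212-3p had between 1 and 119 reads per library, miR-212-5p between 0 and 109, and miR-132-5p between 0 and 29. Libraries held a median of 10237542 counts, from 293331 in control 3-d replicate 1 to 14906217. The limit of detection was set at 3 counts, which in control 3-d replicate 1 is worth 10.2 RPM, above the level of miR-132-3p in any control, so its values for the cluster (0 reads of miR-132-3p, miR-132-5p and miR-212-5p and 1 read of miR-212-3p) cannot be told from the levels of the other controls. The same limit is 0.621 RPM at the next lowest total, and such limits reflect only counting error. The hepatocyte miRNAs miR-122-5p, miR-192-5p, miR-194-5p and miR-148a-3p were together between 123764 and 349151 normalized RPM in the controls and between 253077 and 453439 in the treated rats. The lowest control value was at 3-d, the time of control 3-d replicate 1. Controls of 7-d, 14-d and 28-d began at 276189, 290091 and 324831.

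Some libraries did not resemble their own group. miR-100-5p, which had one of the profiles most like that of miR-212-5p, was between 118 and 277 normalized RPM in the 12 controls and between 926 and 1441 in the 9 middle dose libraries from 7-d on. It was also 1539 in high dose 7-d replicate 26, against 198 and 125 in the other rats of that group. In the low dose at 28-d it was 928 in replicate 28 and 880 in replicate 30, against 114 in replicate 29. Over the 301 tested miRNAs, the deviation from time-matched controls in high dose 7-d replicate 26 had r = 0.80 with the mean middle dose deviation at 7-d and r = 0.59 with that of the other high dose rats. For low dose 28-d replicates 28 and 30, r was 0.63 and 0.72 with the middle dose at 28-d and 0.52 and 0.57 with the other low dose rats. The mean of the other low dose rats includes replicate 29 and covers fewer rats than that of the middle dose. A higher r with the middle dose was not particular to these libraries. High dose 3-d replicates 22 (0.89 against 0.87) and 24 (0.72 against 0.67) also had it, at a miR-100-5p of 174 and 200. So did low dose 28-d replicate 29 (0.36 against 0.31). These values share the control libraries and are descriptive. These 3 libraries and the 9 of the middle dose from 7-d on carry the running numbers 26, 28 and 30 to 39 in the labels, and miR-100-5p was at most 198 in those numbered 25, 27 and 29. The labels name no batch. Whether these libraries share a preparation was not tested, and in the middle dose from 7-d on it and the dose cannot be told apart. Control 3-d replicate 1 and these 3 libraries were left out in turn for some of the values below. Values of the marker and inflammation lists are given with all libraries.

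miR-212-5p, the strand with the largest fold changes of the cluster, was high in the middle dose from 7-d to 28-d and in the high dose at 3-d and 7-d. At 7-d it was 0.457, 0.277 and 0.461 normalized RPM in the controls (3 to 5 reads) and 3.01, 3.26 and 5.15 in the middle dose (34 to 53 reads). In the high dose at 7-d it was 3.10, 6.59 and 2.39. Every middle and high dose rat at 7-d lay above all 3 controls, as 24.3% and 22.6% of the tested miRNAs did in these comparisons, and the middle and high doses overlapped. The log2 fold change against the controls was 3.22 with the middle dose (SE 0.38) and 3.34 with the high dose (SE 0.54), or 2.77 without high dose 7-d replicate 26.

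At 14-d, miR-212-5p was 0.874, 0.944 and 1.14 normalized RPM in the controls and 5.88, 3.29 and 3.91 in the middle dose. It was 0.417, 0.976 and 0.785 in the high dose at 14-d. The middle dose lay above the controls without overlap (as 23.9% of the tested miRNAs did), by a log2 fold change of 2.12 (SE 0.37), whereas the high dose overlapped with them at -0.50 (SE 0.50). At 28-d the controls were 0.738, 0.846 and 0.447 and the middle dose 3.46, 5.01 and 5.24, a log2 fold change of 2.68 (SE 0.35) without overlap (28.9% of the tested miRNAs). The high dose at 28-d, with 0.685, 0.475 and 1.76, overlapped with the controls again (log2 fold change 0.46, SE 0.60).

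At 3-d, miR-212-5p was 0, 0.546 and 0.461 normalized RPM in the controls. It was 2.88, 6.03 and 0.704 in the high dose, so that replicate 24 lay close to the controls and the others far above them, with a log2 fold change of 2.70 (SE 1.01). All 3 still exceeded every control, as 17.6% of the tested miRNAs did. The middle dose at 3-d, with 0.745, 0.860 and 1.11, was above the controls in every rat, at 7 to 10 reads per library (7.97% of the tested miRNAs did so), and the log2 fold change was 0.86 (SE 0.71). Without control 3-d replicate 1 these log2 fold changes were 2.64 and 0.81.

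With the low dose, miR-212-5p stayed below 1.10 normalized RPM in every rat up to 14-d. At 7-d it was 1.06, 0.895 and 0.581, above all controls (30.2% of the tested miRNAs), with a log2 fold change of 1.08 (SE 0.42). At 14-d it was 0.717, 0.692 and 0.369, below all controls (17.3% of the tested miRNAs), with a log2 fold change of -0.74 (SE 0.58). At 28-d the rats disagreed, with 1.77 and 2.70 in replicates 28 and 30 and 0.104 (1 read) in replicate 29. The log2 fold change at 28-d was 1.16 (SE 0.80), and it was 0.46 without replicate 30 and 1.67 without replicate 29.

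**Figure D1:**
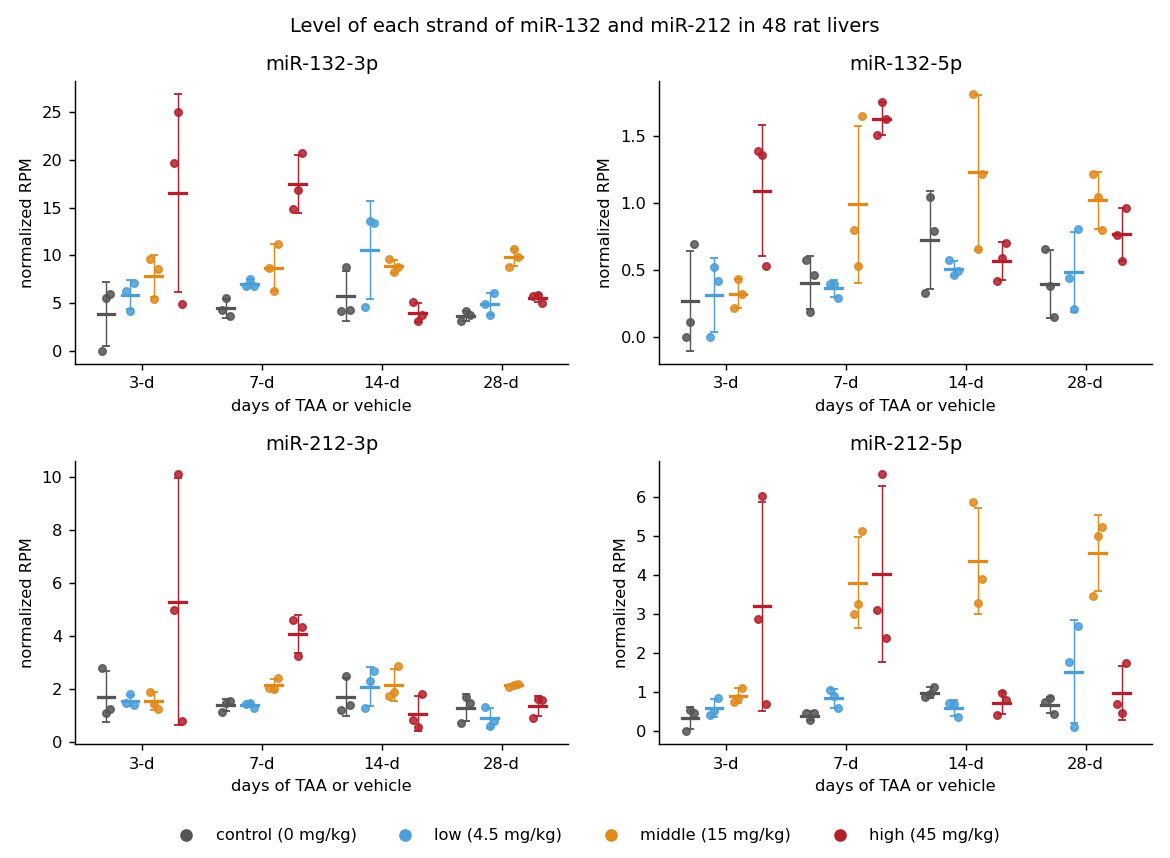
Level of the 4 strands in normalized RPM (y axes, linear, each with its own scale) for each rat (points) by days of treatment (x axes), with the mean (bar) and SD (thin line) of 3 rats per group and colors for dose. For miR-212-5p the 9 middle dose rats from 7-d on lie between 3.01 and 5.88, above every control, and for miR-132-3p the high dose at 7-d lies between 14.8 and 20.7.

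miR-132-3p, the guide strand of its hairpin, had a higher level than miR-212-5p and smaller fold changes in most conditions, and reached its highest group means in the high dose at 7-d and 3-d. At 7-d it was 4.22, 5.55 and 3.59 normalized RPM in the controls, 6.74, 7.55 and 6.83 in the low dose, 8.67, 6.25 and 11.2 in the middle dose and 14.8, 16.8 and 20.7 in the high dose. None of the 3 treated groups overlapped with the controls at 7-d, as was so for 30.2%, 24.3% and 22.6% of the tested miRNAs with the low, middle and high dose. The log2 fold changes rose with dose, from 0.66 (SE 0.21) to 0.96 (SE 0.26) and 1.97 (SE 0.26), the last 1.99 without replicate 26.

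At 3-d the high dose was split, with 19.7 and 25 normalized RPM of miR-132-3p in replicates 22 and 23 and 4.93 in replicate 24. The controls were 0, 5.57 and 5.99, so the groups overlapped. The log2 fold change was 1.74 (SE 0.75), or 1.51 without control 3-d replicate 1. At 28-d the middle dose, with 8.81, 10.7 and 9.82, was above the controls, with 3.12, 4.14 and 3.72, by a log2 fold change of 1.42 (SE 0.22) without overlap (28.9% of the tested miRNAs). Rats of the high dose at 28-d had 5.71, 5.79 and 5.01, also above all controls (21.6% of the tested miRNAs), by 0.59 (SE 0.24).

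At 14-d, miR-132-3p was 4.15, 8.81 and 4.29 normalized RPM in the controls, and replicate 14 was the high value among them. The middle dose, with 9.60, 8.25 and 8.77, overlapped with the controls only through that rat, and its log2 fold change was 0.63 (SE 0.30), or 1.07 without it. The low dose was 4.59, 13.6 and 13.4, with a log2 fold change of 0.88 (SE 0.41). The high dose was 5.11, 3.12 and 3.75, within and below the range of the controls, with a log2 fold change of -0.50 (SE 0.36).

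miR-212-3p shares its seed with miR-132-3p and had lower levels. It was 1.14, 1.48 and 1.57 normalized RPM in the controls at 7-d, 2.04, 2.02 and 2.43 in the middle dose and 4.61, 3.27 and 4.34 in the high dose. Neither treated group overlapped with the controls (24.3% and 22.6% of the tested miRNAs were higher in the same way), and the log2 fold changes were 0.61 (SE 0.26) and 1.52 (SE 0.31). At 28-d the middle dose, with 2.10, 2.17 and 2.19, was above the controls, with 0.738, 1.69 and 1.49, by a log2 fold change of 0.75 (SE 0.36), again without overlap (28.9%). At 3-d, high dose replicates 22 and 23 had 5.01 and 10.1 and replicate 24 had 0.792, so that replicate 24 was the low rat for all 3 strands. At 14-d it was 0.835, 0.585 and 1.83 in the high dose, against 1.20, 2.52 and 1.40 in the controls.

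miR-132-5p, the strand with the fewest reads, was at 0 to 10 reads in every control. With the high dose at 7-d it had 18, 29 and 15 reads, against 5, 2 and 5 in the controls of that time. At 28-d the middle dose had 18, 14 and 12 reads and the controls 8, 4 and 1. In both comparisons the treated rats lay above the controls in normalized RPM, as 13.9% and 19% of all 664 miRNAs did. Because it reached 5 RPM in no library it was not among the tested miRNAs, and in a fit without the filter its log2 fold change was 1.81 (SE 0.57) with the high dose at 7-d and 1.18 (SE 0.57) with the middle dose at 7-d, both called higher, as were 8.89% and 6.17% of the 664 miRNAs.

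Differentially expressed miRNAs (DEMs) were called by a fold change over 1.5 together with p below 0.05 before adjustment, in edgeR's quasi-likelihood test. miR-132-3p was called higher in 6 of 12 conditions (low 7-d, middle 7-d and 28-d, high 3-d, 7-d and 28-d). miR-212-5p was also called higher in 6 (low 7-d, middle from 7-d on, high 3-d and 7-d), and miR-212-3p in 2 (middle 7-d and high 7-d). No member was called lower in any condition. The share of all tested miRNAs called higher was 18.3% in the low dose at 7-d. It was 12%, 12% and 20.9% in the middle dose from 7-d to 28-d, and 6.98%, 17.9% and 13% in the high dose at 3-d, at 7-d and at 28-d. Over all 12 conditions it was 12.1%, and 5.32% of the tested miRNAs were called higher in at least 6 conditions and 34.2% in at least 2. With Benjamini-Hochberg adjustment over the tested miRNAs of a condition in edgeR, miR-132-3p and miR-212-5p kept 4 calls each and miR-212-3p kept 1, against 7.7% of all tested miRNAs and conditions. As the members were chosen for these contrasts, nothing is read from their counts.

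The filter bears on these counts. miR-212-5p reached 5 RPM in 2 high dose and 4 middle dose libraries and miR-212-3p in 3 high dose libraries, and neither reached it in a control or low dose library. Both strands entered the test only through treated rats, and so had to differ there. miR-132-3p reached 5 RPM in 33 libraries, 4 of them controls. Among the 664 miRNAs without the filter, of which 6.16% were called higher on average over the conditions, miR-132-3p and miR-212-5p were called in 6 conditions each, miR-212-3p in 1 and miR-132-5p in 2. Leaving aside the middle dose from 7-d on, whose 9 libraries shared the high miR-100-5p, miR-132-3p was called in 4 of the other 9 conditions, miR-212-5p in 3 and miR-212-3p in 1, where 11.1% of all tested miRNAs and conditions were called higher.

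Groups that did not overlap, with the treated rats higher, were seen in 7 of 12 conditions for miR-212-5p, in 5 for miR-132-3p and in 3 for miR-212-3p, where 21.2% of all tested miRNAs and conditions had this. In RPM without the upper quartile scaling, miR-132-3p had 6 such conditions, with the middle dose at 14-d added. With upper quartile scaling the median log2 fold change of all tested miRNAs lay between -0.06 and 0.28 over the 12 conditions, and was highest for the high dose at 3-d. It lay between -0.09 and 0.30 with library size alone and between -0.06 and 0.07 with TMM, another normalization. In the high dose at 3-d the 3 tested members had log2 fold changes between 1.74 and 2.70, against that median of 0.28. With TMM they were between 1.53 and 2.53, against 0.05, and the call of miR-132-3p was lost. With the other scalings tried, the direction changed for miR-212-3p alone, in the low dose at 7-d, where its log2 fold change was 0.02.

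**Figure D2:**
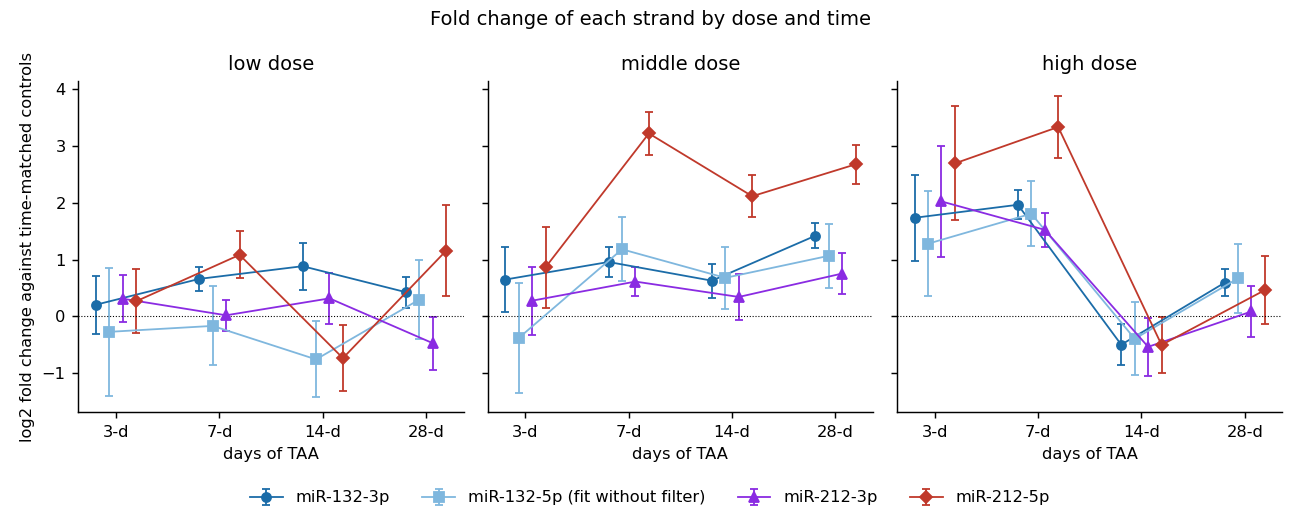
Log2 fold change of each strand against time-matched controls (y axis) by days of TAA (x axis) in 1 panel per dose, as estimate and standard error of edgeR fits of 3 against 3 rats, with miR-132-5p from the fit without the filter. miR-212-5p stands above the other strands in the middle dose from 7-d on (2.12 to 3.22), and in the high dose all strands lie higher at 3-d and 7-d than at 14-d.

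Doses were compared with each other within a time point. In 1 fit of all 48 libraries, the high dose exceeded the middle dose at 7-d by 1.01 log2 units for miR-132-3p (SE 0.38) and by 0.91 for miR-212-3p (SE 0.45), and by 0.11 for miR-212-5p (SE 0.50). Without high dose 7-d replicate 26 these differences were 1.03, 1.05 and -0.46, so that the sign for miR-212-5p turned. The middle dose exceeded the low dose at 7-d by 2.14 for miR-212-5p (SE 0.60) and by 0.30 for miR-132-3p (SE 0.39). At 14-d the difference of high minus middle dose was -2.62 for miR-212-5p (SE 0.61) and -1.13 for miR-132-3p (SE 0.40). At 28-d the differences of high minus middle dose were -2.22 (SE 0.55) for miR-212-5p and -0.83 (SE 0.39) for miR-132-3p. Among the groups of 7-d, both 3p strands thus had the highest mean in the high dose, and among those of 14-d and of 28-d miR-212-5p had it in the middle dose.

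The high dose had a smaller effect on each of the 3 tested strands at 14-d than at 7-d. The effect at 14-d minus that at 7-d was -3.83 log2 units for miR-212-5p (SE 0.94), -2.47 for miR-132-3p (SE 0.57) and -2.08 for miR-212-3p (SE 0.70). Without high dose 7-d replicate 26 these were -3.26, -2.50 and -2.22. The controls differed between these times, as 14-d minus 7-d, by 1.30 for miR-212-5p (SE 0.71), 0.36 for miR-132-3p (SE 0.40) and 0.28 for miR-212-3p (SE 0.50). For the middle dose the same difference was -1.10 for miR-212-5p (SE 0.87) and -0.33 for miR-132-3p (SE 0.55). Ordered by mean level, the 16 groups of miR-132-3p ran from 17.5 ± 3.00 normalized RPM (SD, n = 3) in the high dose at 7-d to 3.66 ± 0.512 in the controls at 28-d. Those of miR-212-5p ran from 4.57 ± 0.969 in the middle dose at 28-d to 0.336 ± 0.294 in the controls at 3-d. No neighbours in either order differed by more than both of their SDs.

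The strands of the miR-212 hairpin differed in which of them had more reads. In none of the 12 controls were there more reads of miR-212-5p than of miR-212-3p, and in 9 of 9 middle dose rats from 7-d on there were. At 7-d the controls had 4, 3 and 5 reads of miR-212-5p and 10, 16 and 17 of miR-212-3p. The middle dose had 34, 37 and 53 reads of miR-212-5p and 23, 23 and 25 of miR-212-3p. As a share of the reads of both strands, miR-212-5p made up 21.8% in the controls at 7-d (95% Wilson interval 12.9% to 34.4%, over the reads of 3 rats) and 63.6% in the middle dose (56.6% to 70.0%). The share was 66.7% in the middle dose at 14-d and 67.9% at 28-d, against 37% and 36.2% in the controls. The intervals cover counting error only.

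As a log2 ratio of 5p to 3p reads (0.5 added to each count), the 12 controls lay between -2.24 and 0 and the 9 middle dose rats between 0.44 and 1.74. Treated minus control means were 2.48 at 7-d (SE 0.33), 1.68 at 14-d (SE 0.51) and 1.90 at 28-d (SE 0.49) with the middle dose, without overlap. With the high dose at 3-d, where both strands were high in replicates 22 and 23, the difference was 0.73 (SE 0.28). It was 0.58 without control 3-d replicate 1. These groups did not overlap (16% of the hairpins with both strands tested), and no library there had more 5p than 3p reads. In the low dose at 7-d the difference was 0.97 (SE 0.35), also without overlap (32.1% of these hairpins) and with no library of more 5p reads. With the high dose at 7-d it was 1.57 (SE 0.65), again without overlap, and 1.00 without replicate 26. That library, with 109 reads of miR-212-5p and 54 of miR-212-3p, had a log2 ratio of 1.01, whereas the others of its group had -0.57 and -0.85. In the low dose at 28-d, replicates 28 and 30 had ratios of 0.40 and 1.71 and replicate 29 had -2.12. The 3 libraries outside the middle dose with a high miR-100-5p thus had a miR-212 strand ratio above 0, as all middle dose libraries from 7-d on did, and outside these 12 the ratio was above 0 in high dose 14-d replicate 8 (5 and 3 reads) and high dose 28-d replicate 21 (20 and 18 reads). In the middle dose the high miR-100-5p and the dose cannot be told apart.

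**Figure D3:**
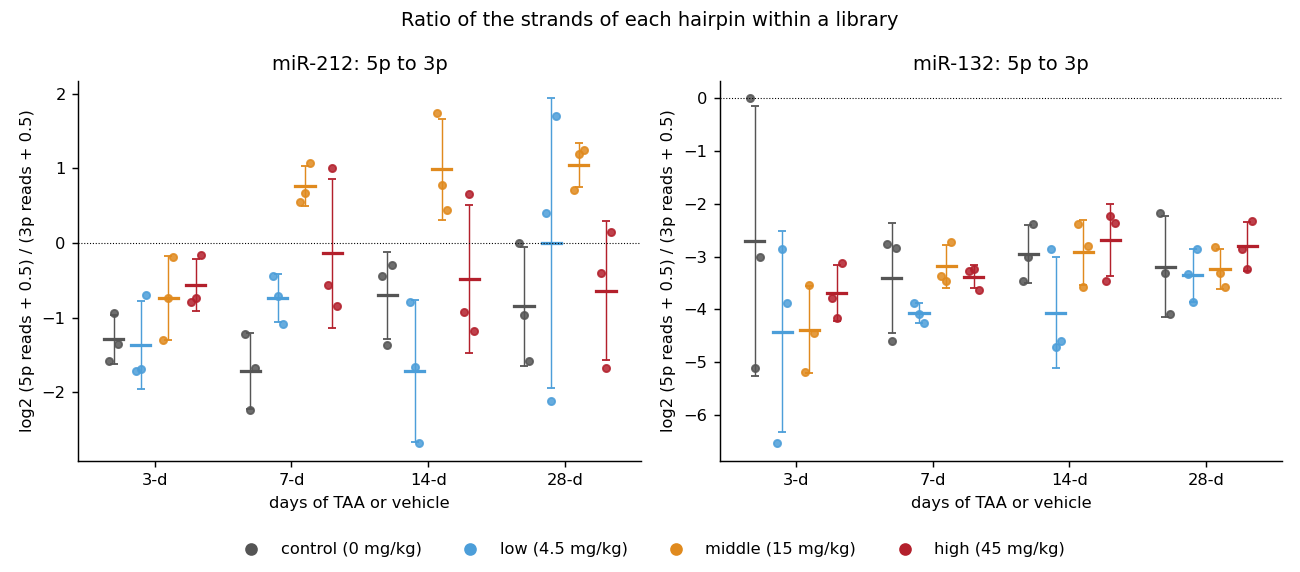
Log2 ratio of 5p to 3p reads within a library (y axes, 0.5 added to each count) for the miR-212 and miR-132 hairpins by time (x axes) and dose (colors), with points for rats and the mean (bar) and SD (thin line) of 3 rats per group. For miR-212 the middle dose rats from 7-d on lie between 0.44 and 1.74, above the dotted line of equal reads, and for miR-132 no treated group is separate from its controls.

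In the miR-132 hairpin, miR-132-5p was the minor strand. The log2 ratio of miR-132-5p to miR-132-3p differed from the controls by between -1.72 and 0.39 over the 12 conditions, and no treated group was separate from its controls. Control 3-d replicate 1 decided the values at 3-d, which went from -1.72 to -0.37 in the low dose, from -1.68 to -0.33 in the middle dose and from -0.98 to 0.37 in the high dose without it, again with overlap. From one hairpin to the other, the ratio of miR-212-5p to miR-132-3p was above the controls without overlap in 3 conditions, those of the middle dose from 7-d on. Without control 3-d replicate 1, in which both counts were 0, the high dose at 3-d was a further one, and its difference went from -0.25 to 0.88. The ratio of miR-212-3p to miR-132-3p, the strands with the same seed, was above the controls without overlap in none of the 12 conditions and below them in 2, the low dose at 7-d and the middle dose at 28-d.

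The strand ratio was also compared over all 81 hairpins with both strands tested. Its difference from the controls was highest for miR-212 in the middle dose at 7-d and at 28-d and in the high dose at 7-d, and ranked 3 in the middle dose at 14-d. In the middle dose at 7-d the next was miR-362 with 1.36 against 2.48 for miR-212, and 17.3% of the hairpins were higher than the controls without overlap. At 28-d it was again miR-362, with 1.57 against 1.90 (22.2% of hairpins). At 7-d in the high dose miR-19a, with 1.51, was close to the 1.57 of miR-212, which fell to 1.00 without replicate 26 (18.5% of hairpins). In the middle dose at 14-d miR-466b was higher than miR-212, with 1.75 against 1.68 (25.9% of hairpins). In the other conditions miR-212 lay inside the range of the rest, and in the low dose at 14-d its difference was -1.01. Since miR-212-5p itself was chosen for its change in these contrasts, these ranks are a description.

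**Figure D4:**
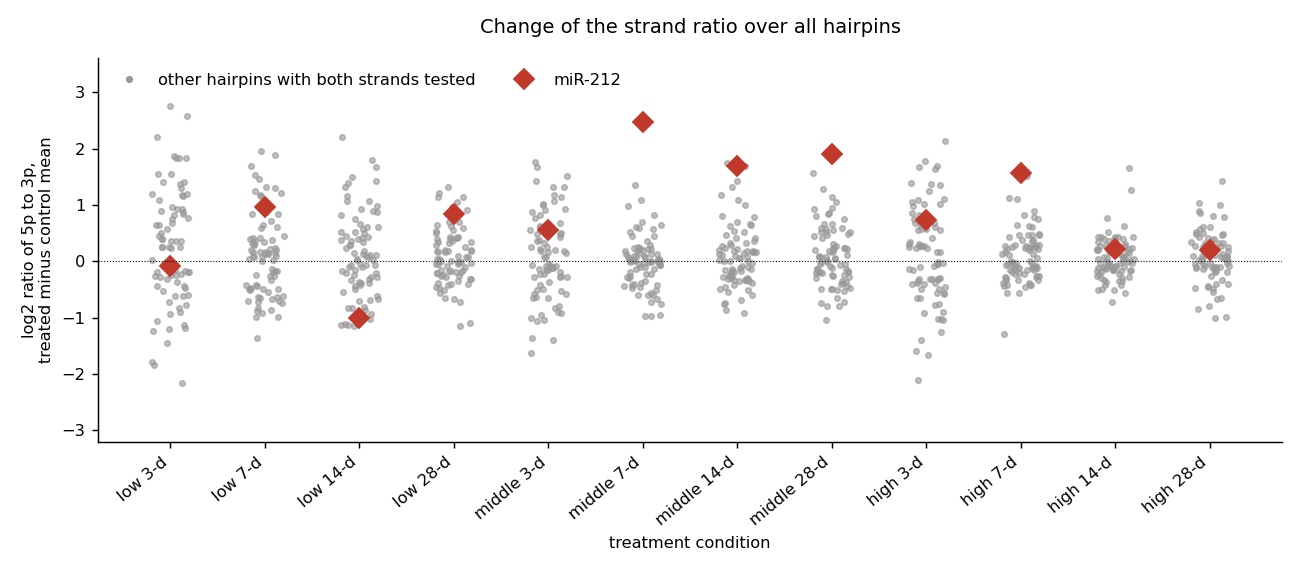
Difference of the mean log2 ratio of 5p to 3p reads between treated and control rats (y axis) in the 12 treatment conditions (x axis), with a gray point for each other hairpin with both strands tested and a red diamond for miR-212. The diamond is the highest of 81 points in the middle dose at 7-d (2.48), at 28-d (1.90), and also for the high dose group at 7-d (1.57).

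Among the tested miRNAs, the profiles most like miR-212-5p over the 48 libraries, by Pearson's r of log2 (normalized RPM + 1), were those of miR-199a-5p (0.81), miR-362-5p (0.79), miR-674-3p (0.76), miR-100-5p (0.76) and miR-186-5p (0.76). Without control 3-d replicate 1 these 5 remained the first 5, in another order. Under other settings the list changed. miR-100-5p ranked 8 over the means of the 16 groups, 10 by Spearman's rho (0.62) and 7 in RPM without upper quartile scaling. In that RPM miR-674-3p ranked 8. miR-362-5p was 16.5 ± 1.64, 17.1 ± 1.96 and 17.6 ± 3.75 normalized RPM in the middle dose at the 3 times from 7-d on (SD, n = 3), against 4.80 ± 0.466, 5.10 ± 1.04 and 5.56 ± 0.709 in the controls. Like miR-100-5p it was high in high dose 7-d replicate 26, at 22, and in low dose 28-d replicates 28 and 30, at 18.2 and 13.4. miR-199a-5p, a miRNA of stellate and other mesenchymal cells, was 343 ± 25.8 in the middle dose at 28-d and 211 ± 37 in the controls. The log2 ratio of 5p to 3p of its hairpin was 0.94 above the controls there. The 6 stellate cell and smooth muscle miRNAs listed below had a median log2 fold change of 0.01 in that group. Of them 2 were called higher (background 20.9%) and none lower, and their summed level overlapped with the controls. The values of a library share its depth, which differed widely between libraries, and the correlations carry no test.

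The profiles most like miR-132-3p were others, namely miR-146b-5p (r = 0.77), miR-3559-3p (0.76), miR-6329 (0.76), miR-466c-3p (0.76) and miR-106b-5p (0.76). This list depended on control 3-d replicate 1, without which their ranks were 9, 6, 3, 15 and 19 and their r fell to between 0.62 and 0.76. miR-146b-5p, which is induced by NF-kB and interferon signals, was 737 ± 315 normalized RPM in the high dose at 7-d (SD, n = 3), 369 ± 61.8 in the middle dose and 300 ± 71.3 in the controls. miR-6329 was 226 ± 11.7 in the high dose at 7-d, 98.5 ± 12.9 in the middle dose and 28.5 ± 1.13 in the controls. Among the groups of 7-d both had the highest mean in the high dose, as miR-132-3p did. In the low dose at 7-d, miR-146b-5p was 544 ± 39.1 and miR-6329 was 101 ± 11.9, with means above those of the middle dose. The mean of miR-132-3p was instead lower in the low dose (7.04) than in the middle dose (8.69). Within the cluster, r over 48 libraries was 0.64 between miR-132-3p and miR-212-5p, 0.62 between miR-132-3p and miR-212-3p and 0.54 between the strands of miR-212. Without control 3-d replicate 1, r between miR-132-3p and miR-212-3p was 0.84, above that of each of the 5 miRNAs just named.

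Of the 7 miRNAs listed as inflammation-induced (miR-146a-5p, miR-146b-5p, miR-155-5p, miR-21-5p, miR-21-3p, miR-223-3p and miR-147), 4 were called higher in the high dose at 3-d and 4 at 7-d, where 6.98% and 17.9% of all tested miRNAs were. Their median log2 fold change was 1.02 at 3-d and 0.59 at 7-d, against 0.28 and 0.14 for all tested miRNAs. At 14-d in the high dose none was called higher (5.65% of all tested miRNAs were) and 1, miR-21-5p, was called lower (3.65%), at a log2 fold change of -0.68 (SE 0.19). In the middle dose 1 of the 7 was called higher at 7-d (background 12%), 1 at 14-d (12%) and 2 at 28-d (20.9%). Low dose rats had 2 such calls after 3 days, 3 after 7 days (background 18.3%), 1 after 14 days and 0 after 28 days. They also had 1 call lower after 7 days and 1 after 14 days. Over all 12 conditions, 12.1% of the tested miRNAs were called higher and 5.98% lower, and nothing is read from these few low dose calls. After 3 days of the low dose the list had a median log2 fold change of 0.78, against 0.16 for all tested miRNAs. miR-132-3p was at 0.20 (SE 0.51) in that group. miR-21-5p, the most abundant of the list, was 54444 ± 3983 normalized RPM in the high dose at 3-d and 26885 ± 8262 in the controls (SD, n = 3). Over all 12 conditions the list had 18 calls higher and 3 lower of 84 possible.

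Markers of other cell types were measured beside the cluster, and their part in its levels was not tested. Of the 7 neuronal miRNAs, 4 were scarce and 3 were tested. miR-124-3p was at 0 reads in 40 libraries and at most 4 reads elsewhere, miR-137-3p at 0 in 32, miR-129-5p at 0 in 28 and miR-9a-3p at 0 in 17. The 3 tested ones were present, at medians of 5.31 (miR-9a-5p), 163 (miR-128-3p) and 15.3 (miR-138-5p) normalized RPM. The 4 leukocyte miRNAs had a summed level of 3940 to 4174 normalized RPM in the high dose at 3-d, above the 2435 to 3585 of the controls, and overlapped with the controls in the middle dose from 7-d on and in the high dose at 7-d. The 3 red blood cell miRNAs were lower than the controls without overlap in the middle dose at 7-d (1636 to 1896 against 3772 to 6168), in the middle dose at 14-d and in the high dose at 7-d, and had 15 calls lower and 1 higher of 36. The summed level of the 6 stellate cell and smooth muscle miRNAs, most of it miR-143-3p, was lower in the middle dose at 7-d (30873 to 39055 against 40967 to 46284) and at 14-d. At 7-d 1 of the 6 was called higher (background 12%), none was called higher at 14-d, and none was called lower at either time. Their median log2 fold changes were 0.07 and -0.31. Over all conditions they had 6 calls higher and 8 lower of 72. The 2 endothelial strands of miR-126a had no call in 24, at 17079 to 29332 in the treated rats and 6827 to 32448 in the controls. The lowest of these control values was at 3-d, and controls of the other times were at 19651 or more. Their summed level was below the controls without overlap in 4 conditions, the low and middle dose at 14-d and at 28-d. In the middle dose it was 20210 to 22037 against 24133 to 26051 at 14-d, and 20839 to 27210 against 28159 to 32448 at 28-d. It was above the controls in 2 conditions, the low and high dose at 3-d. The 5 bile duct and epithelial miRNAs had 5 calls higher and 8 lower of 60, the 4 hepatocyte miRNAs 2 and 1 of 48, and the 4 leukocyte miRNAs 1 and 6 of 48. The neuronal miRNAs that were tested had 5 and 3 of 36, and the 1 pancreatic miRNA of 3 that was tested had no call in 12. Over all tested miRNAs, 12.1% of such calls were higher and 5.98% were lower. Summed levels of the bile duct list were below the controls without overlap in the low and high dose at 7-d (403 to 845 against 1007 to 1086 in the latter). Those of the neuronal list were below in 4 conditions, among them the high dose at 7-d (130 to 192 against 195 to 214). Hepatocyte sums were above the controls in 3, the low dose from 3-d to 14-d. Pancreatic sums were above in 2, the middle and high dose at 7-d.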

How the data were processed

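The deposited file holds raw counts per precursor and mature miRNA. To make them, the authors removed adaptor sequence, selected reads 18 to 25 bases long and quantified these against miRBase release 21 with miRDeep2, without normalization, filter or pooling of replicates. The submitters' processing notes also name FastQC and the rn5 build. Each member had a single row, and a mature miRNA with several precursors was represented by the one with the most reads.

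A filter of 5 RPM or more in 3 or more of the 48 libraries left 301 of 664 mature miRNAs for testing. Treated rats of each condition were set against their time-matched controls in separate fits of 6 libraries by the quasi-likelihood F-test of edgeR 4.0.16 (R 4.3.3), after upper quartile normalization. Differences between doses and times came from 1 fit of all libraries. The F statistic and the log2 fold change gave each standard error. Strand ratios were computed from counts with 0.5 added. Likeness was Pearson's r of log2 (normalized RPM + 1). p-values measure the spread between the 3 rats of a group.

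The labels name dose, time and a running number, used as the replicate number. No 2 libraries of a group agreed within sampling noise. Named genes were the 4 members, the 5 miRNAs most like miR-212-5p and miR-132-3p, and up to 3 of each marker list, with further list members named to define a list. The hairpins named beside miR-212 and the libraries described by miR-100-5p were chosen after their values were seen. The members and lists were chosen with earlier results of these data known. In data simulated for the middle dose at 14-d (301 miRNAs), the test called 46 of 46 miRNAs with a 4-fold change, 34 of 39 with a 2-fold change and 8 of 216 unchanged ones. The simulation was a single run with the same dispersion for every miRNA, so these rates need not hold for the scarce strands of the cluster. Sequences and positions came from RefSeq tables of the GRCr8 build, in which all 4 members were matched by name. Alternatives were other scalings, filters and tests, pooled controls and leaving out each library.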

Additional observations from a re-analysis of the deposited data

Results flagged for a closer look

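miR-212-5p in the low dose at 14-d moved against 2 other conditions, with no overlap on either side. Every low dose rat at 14-d lay below all controls of that time, at a log2 ratio of mean levels of -0.73, while every low dose rat at 7-d lay above its controls. Every middle dose rat at 14-d also lay above the same controls that the low dose rats lay below (-0.73). The low dose rats at 14-d had 5, 6 and 3 reads and the controls 8, 9 and 13. At 14-d, 17.3% of all tested miRNAs were lower in the low dose without overlap. In 1 fit of all 48 libraries the low dose effect at 14-d minus that at 7-d was -1.82 log2 units (SE 1.02), and the middle dose exceeded the low dose at 14-d by 2.86 (SE 0.63). As miR-212-5p was chosen for its changes in these contrasts, no p-value is given and the difference was not tested. Groups of 3 are too small for a check of single outlying rats.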

How the results depend on the processing

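The number of conditions in which a strand was called higher was within 1.5 times the reported one under every alternative for miR-132-3p and miR-212-5p. For miR-212-3p it was 1 instead of 2 without a filter on low counts, with the DESeq2 Wald test and with Benjamini-Hochberg adjustment. Leaving out 1 library at a time gave 5 to 8 conditions for miR-132-3p, 5 to 7 for miR-212-5p and 1 to 3 for miR-212-3p. The call of miR-212-3p in the middle dose at 7-d was lost without each of the 6 libraries in turn. The high dose call at 3-d was lost for miR-132-3p without any 1 of the 3 controls or of high dose replicates 22 and 23, with log2 fold changes of 1.33 to 1.96. It was lost for miR-212-5p without control replicate 2 or 3 or high dose replicate 22 or 23 (1.86 to 2.87). The call of miR-212-5p in the low dose at 7-d was lost without control replicate 5 or low dose replicate 46 or 47, and that of miR-132-3p in the high dose at 28-d without control replicate 16 or high dose replicate 19 or 20. The call of miR-132-3p in the low dose at 7-d was lost without control replicate 6. Of the 8 other scalings, filters, tests and designs, the miR-132-3p call was lost under 6 in the high dose at 28-d, 4 in the high dose at 3-d and 3 in the low dose at 7-d. The miR-212-5p call in the low dose at 7-d was lost under 6 and the miR-212-3p call in the middle dose at 7-d under 5. The calls of miR-212-5p in the middle dose from 7-d on and in the high dose at 7-d were lost under no alternative run. The cause was not tested. Of 504 recomputed log2 fold changes of the members, 494 moved by less than the spread between replicates, 10 by more, and no called one changed sign. Medians of the marker lists moved in 52 of 135 recomputations, 39 with library size alone and 13 without control 3-d replicate 1, and 11 of 40 correlations moved by over 0.1. The comparison of strand ratios over all hairpins, the overlap of 3-d strand ratios without control 3-d replicate 1, the overlap in RPM, the counts without the middle dose and the differences of effects without a filter were added after seeing the data. No paired analysis was possible because the labels number the rats from 1 to 48 and no groups share a number. Depth limits miR-132-5p and the controls of miR-212-5p, which had at most 13 reads per library.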
